A study of Homo sapiens with 34 samples.

Results

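The peaks described here are the binding sites called on human chromosome 5 in SW872 cells, a human liposarcoma line, by Flag chromatin immunoprecipitation sequencing (ChIP-Seq) of 6 constructs. They were chosen by chromosome name alone, and chromosome 5 was itself selected on its large number of peaks in these same lists. Members were 1498 of the 10414 peaks in the 7 deposited lists, and of the 9895 peaks that the 6 construct lists held on chromosomes 1 to 22 and X. The constructs were all carried stably and Flag-tagged. They were TAZ4SA and YAP5SA (TAZ and YAP made constitutively active by changing LATS target serines to alanine), TAZ-CAMTA1 (TC), YAP-TFE3 (YT), full-length CAMTA1 and full-length TFE3. Cells with an empty vector (EV) served as the control and were precipitated with IgG. The 34 libraries were 18 Flag libraries (3 per construct), 2 EV IgG libraries and 14 inputs (2 per construct and for EV). SW872 is 1 cell line and expresses these proteins from introduced constructs, and per the sample descriptions the CAMTA1 cells were collected before confluence while the other cells were near it, whereas the study's methods give near confluence for all. The authors merged the reads of all replicates of a construct before calling peaks, so each construct has 1 list, no value below has a replicate error, and no test between constructs was possible.

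TAZ and YAP are transcriptional co-activators of the Hippo pathway. They do not bind DNA by themselves and reach it mainly through TEAD transcription factors, often at enhancers far from promoters. LATS kinases phosphorylate TAZ and YAP and keep them out of the nucleus. Such fusions characterise the vascular sarcoma epithelioid hemangioendothelioma, and each of TC and YT keeps the TEAD-binding amino terminus of TAZ or YAP and gains the carboxy terminus of CAMTA1 or TFE3. TFE3 binds DNA directly through a basic helix-loop-helix domain and is known for control of lysosomal genes. CAMTA1 is a calmodulin-binding transcription activator.

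Chromosome 5 carried 120 of 1166 TAZ4SA peaks, or 10.3% (95% Wilson interval 8.68% to 12.2%). The TC list had 101 of 1184 peaks there (8.53%, interval 7.07% to 10.3%). YAP5SA had 689 of 3754 peaks on the chromosome (18.4%, interval 17.1% to 19.6%), and YT had 534 of 3336 (16.0%, interval 14.8% to 17.3%). The short lists of the partner proteins held 18 of 156 CAMTA1 peaks (11.5%, interval 7.42% to 17.5%) and 36 of 299 TFE3 peaks (12.0%, interval 8.82% to 16.2%). For comparison, chromosome 5 made up 5.98% of the 5 Mb bins of the genome that hold chromosomes 1 to 22 and X, and 903 of 19970 protein-coding genes of RefSeq (4.52%). None of the 4 chromosomal EV IgG peaks lay on chromosome 5, but 4 peaks are too few for this to be informative. Share intervals reflect counting error alone, as if adjacent peaks were independent, and all intervals for medians are 95% order-statistic intervals.

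Per 5 Mb, chromosome 5 had 3.07 times the mean number of peaks for YAP5SA and 2.68 times for YT. The factor was 1.72 for TAZ4SA, 1.43 for TC, 1.93 for CAMTA1 and 2.01 for TFE3. Chromosome 5 ranked second of 23 chromosomes for YAP5SA and YT, after chromosome 20 with 3.69 and 3.84 times the mean. Chromosome 20 also led the TAZ4SA and TC lists (2.86 times in each), and chromosome 5 ranked number 4 and number 7 in them. The YAP5SA and YT lists were deeper: mean coverage recovered from the peak values was 10.7 and 10.5 fragments per base, against 2.33 for TAZ4SA, 2.52 for TC, 2.21 for CAMTA1 and 8.61 for TFE3. Construct family and depth therefore cannot be told apart in the higher share of the YAP lists. With each list cut to its 1166 strongest peaks, the chromosome 5 share was 10.3% for TAZ4SA, 8.40% for TC, 17.4% for YAP5SA and 13.2% for YT.

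The share on chromosome 5 depended on peak strength in the YAP lists. When the YAP5SA peaks were ranked by p and divided into 4 equal parts, chromosome 5 held 17.8% of the strongest part, 14.0% and 16.9% of the middle parts and 24.7% of the weakest part (interval 22.1% to 27.6%). The corresponding shares for YT were 13.1%, 11.4%, 15.6% and 24.0% (interval of the last 21.2% to 27.0%). In TAZ4SA they were 8.90%, 10.7%, 6.51% and 15.1%, and in TC 6.42%, 10.8%, 9.12% and 7.77%. The weakest part thus had the highest share in the TAZ4SA, YAP5SA and YT lists and not in the TC list.

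Along the chromosome the peaks were far from even. A 5 Mb bin was called crowded when it held at least 3 times the mean number of peaks of all bins in that list. Of 37 bins on chromosome 5, 14 were crowded in the YAP5SA list and 14 in the YT list, where 7.59% of all 619 bins of the genome were crowded in each. TAZ4SA had 11 crowded bins (9.85% of all bins) and TC had 6 (9.69% of all bins). The chromosome was selected for its number of peaks, so these counts describe where the peaks lie and are no evidence about the chromosome. Crowded bins held 512 of 689 YAP5SA peaks (74.3%), 400 of 534 YT peaks (74.9%), 78 of 120 TAZ4SA peaks (65.0%) and 42 of 101 TC peaks (41.6%).

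For YAP5SA the crowded bins joined into 7 segments. The segment from 65 to 80 Mb held 111 YAP5SA peaks, and those from 50 to 60 Mb and 30 to 40 Mb held 95 and 94. The segment from 5 to 20 Mb held 84 peaks, the one from 130 to 140 Mb held 62, the one from 155 to 160 Mb held 44 and the one from 95 to 100 Mb held 22. YT had nearly the same outline, with 87 peaks from 65 to 80 Mb, 67 from 130 to 140 Mb, 60 from 30 to 40 Mb and 45 from 155 to 160 Mb. Of the 16 bins crowded in any of these 4 lists, 13 were crowded in both YAP5SA and YT and 6 in all 4 lists. Those 6 began at 10, 30, 35, 55, 65 and 70 Mb. The gaps were also shared: no construct had a peak from 25 to 30 Mb or from 45 to 50 Mb, and 1 TC peak was the single peak from 20 to 25 Mb. How much of these bins could hold uniquely placed reads was not examined, so an empty bin need not reflect the constructs.

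**Figure D1:**
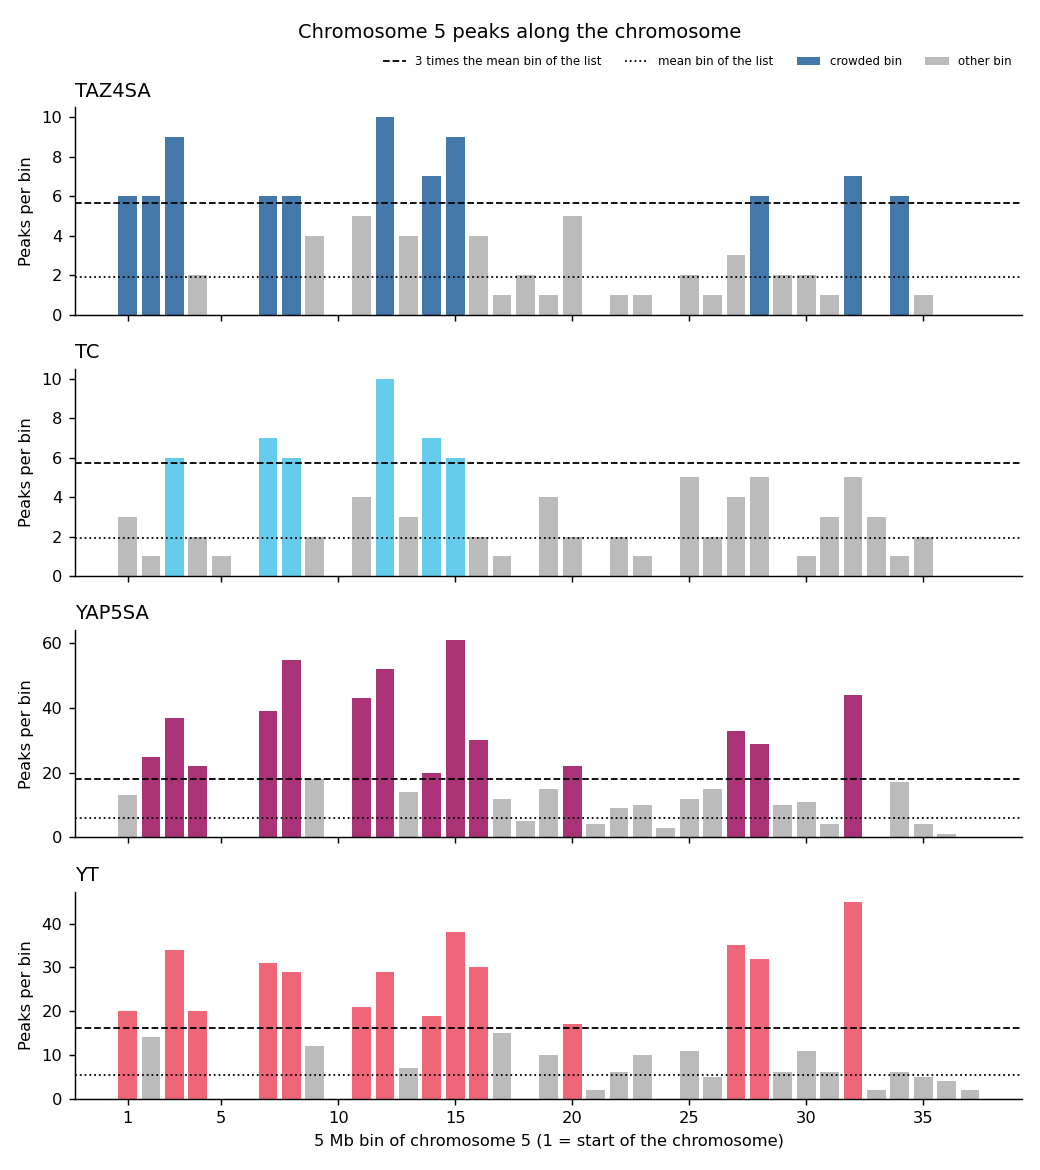
Peaks per 5 Mb bin of chromosome 5 in the TAZ4SA, TC, YAP5SA and YT lists. The x axis is the bin number from the start of the chromosome, bars are peak counts, coloured bars are crowded bins, and the dashed and dotted lines mark 3 times and 1 times the mean bin of that list. The fullest bins held 10 peaks for TAZ4SA and TC (the bin from 55 to 60 Mb), 61 for YAP5SA (70 to 75 Mb) and 45 for YT (155 to 160 Mb).

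Bin counts went together between constructs. Over the 37 bins, Pearson's r was 0.893 between YAP5SA and YT, 0.849 between TAZ4SA and YAP5SA, 0.760 between TAZ4SA and TC and 0.736 between TC and YT, the lowest of the 6 pairs. Spearman's rho for these pairs was 0.916, 0.890, 0.717 and 0.769. These are descriptions over bins of 1 genome in 1 cell line.

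The balance of YT and YAP5SA peaks varied from bin to bin without a simple order along the chromosome. Among crowded bins, YAP5SA had 55 peaks and YT 29 from 35 to 40 Mb, 43 and 21 from 50 to 55 Mb, 52 and 29 from 55 to 60 Mb, 61 and 38 from 70 to 75 Mb and 25 and 14 from 5 to 10 Mb. The counts were closer in other crowded bins, at 37 YAP5SA and 34 YT peaks from 10 to 15 Mb, 20 and 19 from 65 to 70 Mb, 30 and 30 from 75 to 80 Mb, 33 and 35 from 130 to 135 Mb, 29 and 32 from 135 to 140 Mb and 44 and 45 from 155 to 160 Mb. The bin at the chromosome start had 13 YAP5SA and 20 YT peaks. In bins crowded in neither the YAP5SA nor the YT list, YT had 5 peaks to 15 of YAP5SA from 125 to 130 Mb. In bin 34, counted from the chromosome start, YT had 6 peaks to 17 of YAP5SA. Bin 34 was crowded in the TAZ4SA list. There, 9 of the YAP5SA peaks lay in chr5:165765783-165922524, and 2 of the YT peaks lay in chr5:165751096-165785385.

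The partner proteins had few peaks, and their fullest bins named here were all crowded in the YT list. CAMTA1 had no peak in 24 of 37 bins, and its fullest bin, from 135 to 140 Mb, held 4 of its 18 peaks. TFE3 had no peak in 21 bins and had 7 of its 36 peaks from 130 to 135 Mb, 5 from 65 to 70 Mb and 4 in the first bin. From 55 to 60 Mb, the bin that was fullest for TAZ4SA and TC, CAMTA1 had 1 peak and TFE3 had 0. At these totals a missing peak in a bin was not informative.

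Within the chromosome, YAP5SA peaks came in close groups. The median distance between neighbouring YAP5SA peaks was 47.4 kb on chromosome 5 (interval 38.1 to 56.4 kb), against 179 kb on the other chromosomes (162 to 197 kb). For YT the distances were 64.5 kb (53.0 to 81.4 kb) and 213 kb (194 to 232 kb). Of 688 gaps between YAP5SA peaks, 35.0% were under 20 kb (interval 31.6% to 38.7%), against 19.7% elsewhere (18.3% to 21.1%). Of 533 YT gaps 26.5% were that short (22.9% to 30.4%), against 15.6% elsewhere (14.3% to 17.0%). In TAZ4SA the median gap was 417 kb on chromosome 5 and 803 kb elsewhere, while 8.40% and 9.57% of gaps were under 20 kb. In TC the median gap was 681 kb on chromosome 5 and 733 kb elsewhere, and 7.0% and 9.61% of gaps were under 20 kb. Short gaps are more frequent in any list with more peaks per Mb, and this was what the chromosome was selected on.

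The 3 fullest 1 Mb windows of the YAP5SA list lay inside crowded bins. The window from 55 to 56 Mb held 24 YAP5SA peaks, with a median gap of 18.2 kb, beside 8 TAZ4SA, 5 TC and 15 YT peaks, and was also the fullest TAZ4SA window. Its strongest YAP5SA peak, chr5:55574223-55576372 (GRCh37), had 15.1-fold enrichment and overlapped TAZ4SA, TC and YT peaks. The window from 73 to 74 Mb held 23 YAP5SA peaks and its strongest, chr5:73890698-73891454, had 13.4-fold enrichment and again overlapped TAZ4SA, TC and YT. The window from 71 to 72 Mb held 21 YAP5SA peaks but 1 TAZ4SA and 2 TC peaks, and its strongest peak reached 7.97-fold. In these windows 14 of 24, 11 of 23 and 16 of 21 YAP5SA peaks overlapped no peak of another construct, beside 59.2% of all YAP5SA peaks on chromosome 5. The fullest YT window, from 159 to 160 Mb, held 22 YT and 18 YAP5SA peaks.

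Fold enrichment is the scaled fragment pileup at the summit over the local background, each with 1 added, as given by the authors' caller. The scaling recovered from the peak values was 0.307 for YAP5SA, 0.356 for YT, 0.355 for TFE3 and 1 for TAZ4SA, TC and CAMTA1. Fragment numbers are given here before this scaling, and the local background is on the scaled level. The median chromosome 5 peak was less enriched than the median peak of the other chromosomes in all 6 lists. The medians on chromosome 5 and elsewhere were 5.14 and 6.01 for TAZ4SA, 4.49 and 5.11 for TC, 5.12 and 6.27 for CAMTA1, 4.60 and 4.96 for YAP5SA, 4.05 and 4.50 for YT and 4.27 and 5.38 for TFE3. The intervals of the paired medians did not overlap in the TC, YAP5SA, YT, TFE3 and CAMTA1 lists, and those of TAZ4SA (4.47 to 6.09 and 5.84 to 6.28) did. The number of fragments at the summit was not lower throughout: the medians were 23 and 22 for TAZ4SA, 22 and 19 for TC, 19.5 and 22 for CAMTA1, 66 and 69 for YAP5SA, 55 and 59 for YT and 58.5 and 72 for TFE3. Peaks called at a q above 0.01 made up 12.5% of YAP5SA peaks on chromosome 5 and 6.46% elsewhere, and 18.4% and 7.39% of YT peaks.

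Inside and outside crowded bins the median fold enrichment was close. It was 4.60 inside and 4.55 outside for YAP5SA, 4.01 and 4.06 for YT, 4.72 and 4.30 for TC and 5.31 and 4.71 for TAZ4SA, and in each list the 2 intervals overlapped. The median −log10 q was higher inside in the TAZ lists, at 9.29 inside and 4.72 outside for TAZ4SA (6.27 to 14.5 and 3.51 to 10.5) and 7.66 and 4.78 for TC (5.81 to 8.96 and 3.66 to 7.66), with intervals that overlapped, while it was 5.49 both inside and outside for YAP5SA and 3.94 for YT. The median TAZ4SA peak had 27.5 fragments at the summit inside (22 to 33) and 19 outside (18 to 24). Crowded bins held wider peaks in the YAP5SA list. YAP5SA peaks had a median width of 395 bp in crowded bins (369 to 423 bp) and 345 bp outside (308 to 365 bp), while for YT peaks, at 398 bp (361 to 431 bp) and 331.5 bp (291 to 370 bp), the intervals overlapped.

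The local background, which the caller took from the control library in windows around the peak, could be recovered for nearly all chromosome 5 peaks and is given relative to the lowest value shared by the peaks of a list. A control library can carry the copy number of its cells, and the part of copy number in these values was not tested. The background of chromosome 5 peaks was above that of the other chromosomes pooled. In TAZ4SA, 112 of 120 chromosome 5 peaks (93.3%) lay above the lowest background, against 59.5% elsewhere, and the median relative background was 1.56 against 1.09. In TC it was 97 of 101 peaks (96.0%) against 54.5%, with medians of 1.53 and 1.04. In CAMTA1 it was 15 of 18 (83.3%) against 47.1%. In the deeper lists 334 of 688 YAP5SA peaks (48.5%) lay above it, against 14.4% elsewhere, 260 of 534 YT peaks (48.7%) against 21.0%, and 24 of 36 TFE3 peaks (66.7%) against 28.7%. Other chromosomes had similar or higher shares. In TAZ4SA chromosomes 20, 7, 9 and 11 had 95.7%, 91.6%, 88.6% and 84.5% of peaks above it, in TC chromosomes 20 and 7 had 93.0% and 91.6%, and chromosome 13 had 76.5% in YAP5SA and 80.0% in YT. The raised background is a part of the fold enrichment by construction, and its part in the number of peaks called was not tested.

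The background had a boundary along the chromosome. The stretches below were set after the values were seen. From 0 to 140 Mb, 100 of 101 TAZ4SA peaks and 86 of 86 TC peaks lay above the lowest background. From 140 to 155 Mb, 0 of 5 TAZ4SA peaks and 3 of 4 TC peaks did, and the TC median there was 1.08 against 1.54 before it. From 155 to 160 Mb all 7 TAZ4SA peaks and all 5 TC peaks were above it again, with medians of 1.96 and 1.71. In the YAP5SA list the share above it was 50.4% from 0 to 140 Mb, 8.0% from 140 to 155 Mb and 47.7% from 155 to 160 Mb, and in YT 51.0%, 17.4% and 53.3%. From 160 to 185 Mb it was 45.5% for YAP5SA and 21.1% for YT, and 5 of 7 TAZ4SA peaks lay above it. Peak numbers did not follow the background throughout. YAP5SA had 21.4 peaks per 5 Mb in the first stretch, 8.33 in the second and 44.0 in the third, followed by 4.40 from 160 to 185 Mb, and YT had 16.0, 7.67, 45.0 and 3.80. TAZ4SA had 3.61, 1.67, 7.0 and 1.40. The stretch with a low background thus had fewer peaks than those on either side of it from 0 to 160 Mb. For YAP5SA, however, shares were 45.5% to 50.4% in the stretches from 0 to 140, 155 to 160 and 160 to 185 Mb. Peaks per 5 Mb there were 21.4, 44.0 and 4.40. Of the 10 YAP5SA peaks above the lowest background from 160 to 185 Mb, 9 lay in chr5:165765783-165922524. The YAP5SA share of that stretch thus rested mainly on 1 small region. The part of the background, and of what sets it, in these numbers was not tested.

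**Figure D2:**
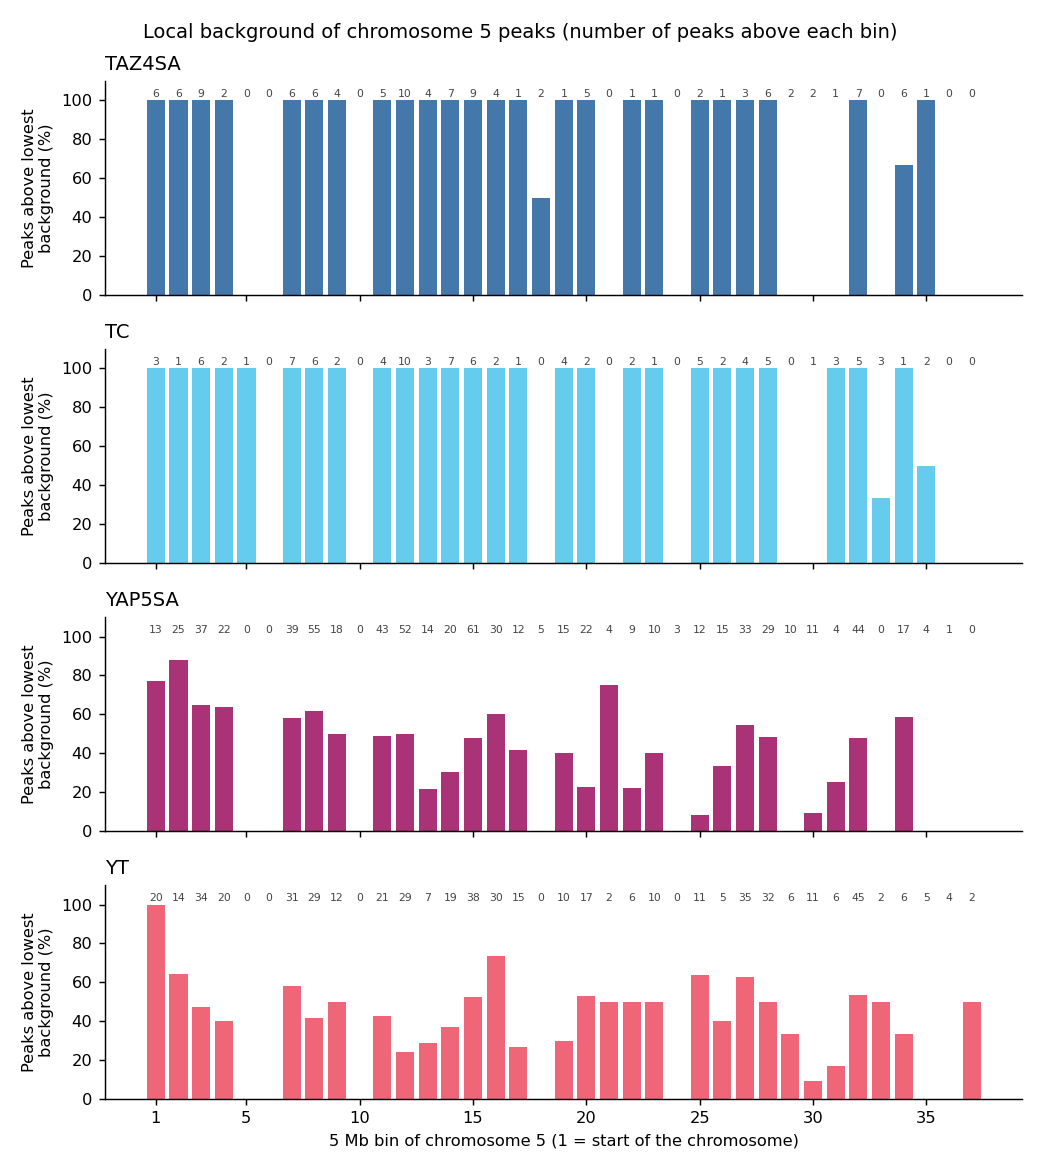
Share of chromosome 5 peaks whose local background lay above the lowest of the list, per 5 Mb bin (x axis, from the start of the chromosome), in percent (y axis), with the number of peaks written above each bin. The TAZ4SA bars stand at 100% in nearly every occupied bin up to bin 28, are at 0 in bins 29 to 31 and return to 100% in bin 32, the bin from 155 to 160 Mb.

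Across the 23 chromosomes, peak density and the share of peaks above the lowest background went together more closely in the shallower TAZ4SA and TC lists than in YAP5SA and YT. Pearson's r was 0.732 for TAZ4SA and 0.699 for TC, and 0.724 and 0.719 without chromosome 5. In YAP5SA and YT it was 0.296 and 0.276, and 0.10 and 0.155 without chromosome 5. The contrast was smaller by rank. Spearman's rho was 0.630 for TAZ4SA, 0.690 for TC, 0.422 for YAP5SA and 0.344 for YT. Without chromosome 5 these were 0.581, 0.684, 0.356 and 0.267. Chromosomes 5 and 20 were both dense in the YAP5SA list, with 48.5% and 19.2% of their peaks above the lowest background, while chromosome 13, with 76.5% above it, had 0.74 times the mean density. In TAZ4SA the shares of chromosomes 5 and 20 were 93.3% and 95.7%, and in TC 96.0% and 93.0%. These are descriptions over chromosomes that share the same libraries. Besides depth, the recovered pileup scaling differed, at 1 for TAZ4SA and TC, 0.307 for YAP5SA and 0.356 for YT. Shares above the lowest background thus need not be comparable between these lists. The part of depth and scaling in the contrast was not tested.

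**Figure D3:**
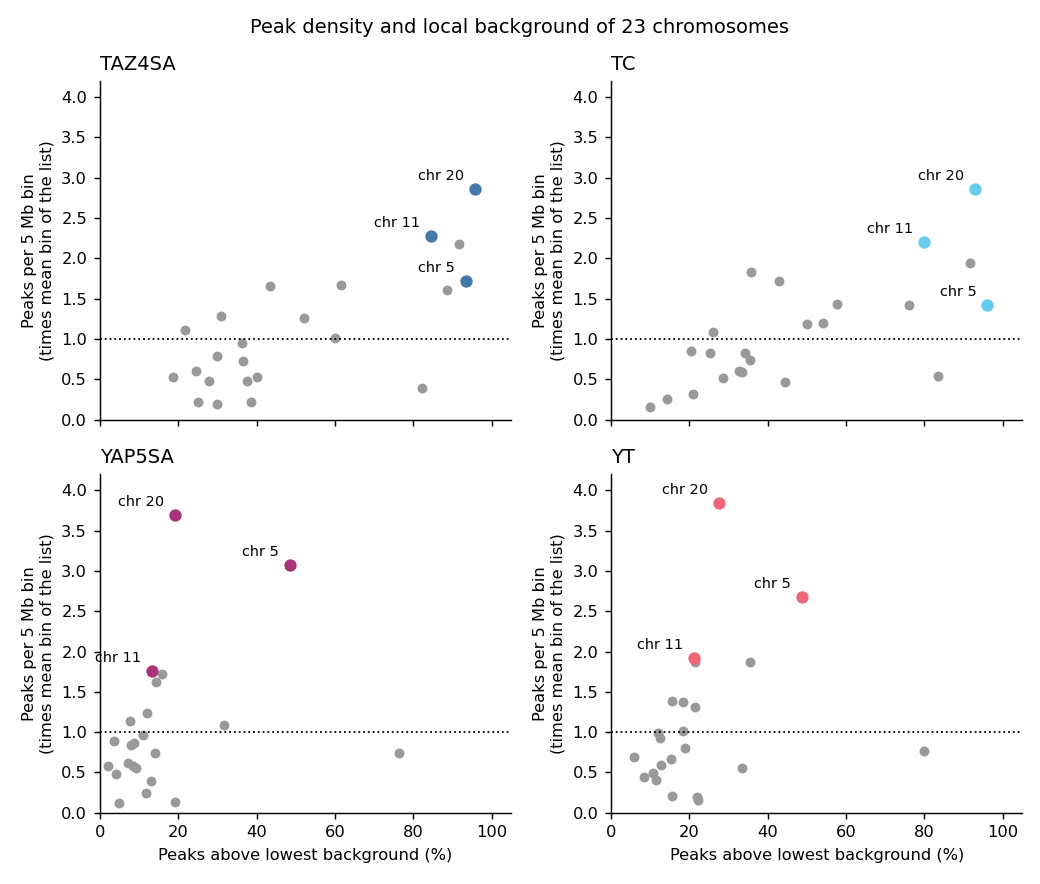
Each point is 1 of 23 chromosomes in the TAZ4SA, TC, YAP5SA or YT list. The x axis is the share of its peaks above the lowest local background in percent, the y axis is peaks per 5 Mb bin as a multiple of the mean bin of the list, the dotted line marks 1, and chromosomes 5, 11 and 20 are coloured. Chromosome 5 stands at 3.07 times the mean bin for YAP5SA and 1.72 times for TAZ4SA.

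Peaks were counted as shared when they had at least 1 bp in common. The overlap of active TAZ with active YAP was the highest of the 10 shares plotted: 100 of 120 TAZ4SA peaks on chromosome 5 overlapped a YAP5SA peak (83.3%, interval 75.7% to 88.9%), against 71.1% of all TAZ4SA peaks and 69.7% of those on other chromosomes (interval 66.8% to 72.4%). Of 101 TC peaks, 71 overlapped YAP5SA (70.3%, interval 60.8% to 78.3%, all chromosomes 56.0%) and 65 overlapped YT (64.4%, interval 54.6% to 73.0%, all chromosomes 50.8%). A longer second list with denser peaks gives more overlap, and with YAP5SA cut to its 1166 strongest peaks the TAZ4SA share was 57.5%. Seen from the longer list, 13.9% of YAP5SA peaks on chromosome 5 overlapped TAZ4SA (interval 11.5% to 16.7%), against 23.7% elsewhere (22.2% to 25.3%).

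Each fusion overlapped its active parent to a similar extent on chromosome 5 and in all. Of TC peaks, 33 of 101 overlapped TAZ4SA (32.7%, interval 24.3% to 42.3%, all chromosomes 32.3%), and of TAZ4SA peaks 34 of 120 overlapped TC (28.3%, interval 21.0% to 37.0%, all chromosomes 33.0%). Of YT peaks, 241 of 534 overlapped YAP5SA (45.1%, interval 41.0% to 49.4%, all chromosomes 41.2%), and of YAP5SA peaks 236 of 689 overlapped YT (34.3%, interval 30.8% to 37.9%, all chromosomes 36.5%). Crowded bins held a higher share of YAP5SA peaks overlapping YT (187 of 512, 36.5%) than other bins (49 of 177, 27.7%), with intervals of 32.5% to 40.8% and 21.6% to 34.7% that overlapped.

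Few peaks of the partner proteins were available. Of 36 TFE3 peaks, 26 overlapped YT (72.2%, interval 56.0% to 84.2%, all chromosomes 79.3%) and 14 overlapped YAP5SA (38.9%, interval 24.8% to 55.1%, all chromosomes 31.8%). CAMTA1 shared no chromosome 5 peak with TC, which carries its carboxy terminus, or with TAZ4SA: 0 of 18 in each, where 3 counts of 18 would be a share of 16.7%, against 1.92% and 0.641% of the CAMTA1 peaks of all chromosomes. Shared peaks had near summits. The median distance between summits was 21.0 bp for the 33 TC peaks in TAZ4SA, 42.0 bp for the 241 YT peaks in YAP5SA, 28.0 bp for the 100 TAZ4SA peaks in YAP5SA and 21.5 bp for the 26 TFE3 peaks in YT.

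**Figure D4:**
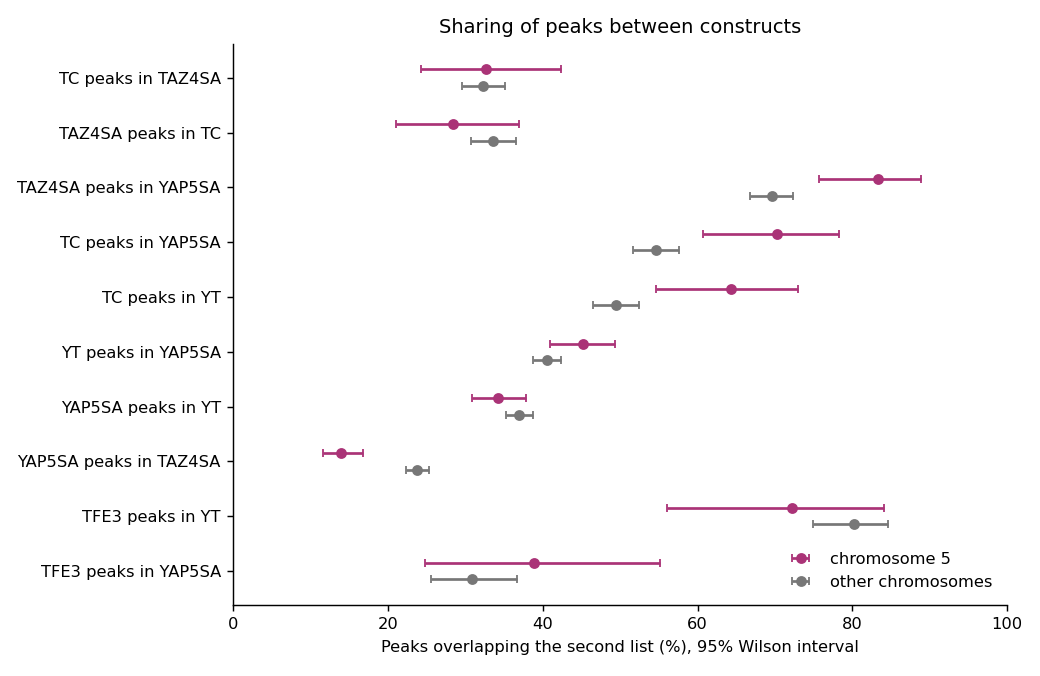
Share of peaks of the first list that overlap the second list (x axis, percent, with 95% Wilson intervals) for 10 directed pairs of lists, on chromosome 5 and on the other chromosomes. TAZ4SA peaks overlapped YAP5SA in 83.3% on chromosome 5 and 69.7% elsewhere, while YAP5SA peaks overlapped TAZ4SA in 13.9% and 23.7%.

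Peaks found with a single construct were frequent in the long lists. Of YAP5SA peaks on chromosome 5, 408 (59.2%, interval 55.5% to 62.8%) overlapped no other list, against 48.6% elsewhere (46.8% to 50.4%). For YT the numbers were 269 (50.4%) and 49.4%. Of TAZ4SA peaks 16 (13.3%, interval 8.38% to 20.6%) overlapped no other list, against 23.1% elsewhere (20.7% to 25.8%), and of TC peaks 22 (21.8%) against 31.4%. CAMTA1 had 16 of 18 such peaks (88.9%, elsewhere 89.1%) and TFE3 had 9 of 36 (25.0%, elsewhere 18.3%). Shared peaks were more enriched. The median fold enrichment of private and shared peaks was 4.25 and 5.39 for YAP5SA, 3.60 and 4.71 for YT, 3.60 and 5.81 for TAZ4SA and 3.72 and 4.79 for TC, and in these 4 lists the intervals did not overlap.

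Merging the overlapping peaks of the 6 lists gave 1042 sites on chromosome 5. Of these, 740 (71.0%) were held by 1 construct, against 65.9% of sites on other chromosomes. After the sites of YAP5SA alone (408) and YT alone (269), the most frequent combination was YAP5SA with YT (137 sites), then TAZ4SA with YAP5SA (33). TAZ4SA, TC, YAP5SA and YT together held 30 sites (2.88%, interval 2.02% to 4.08%), where they held 4.11% of the sites of all chromosomes and 4.34% of those on other chromosomes (3.84% to 4.92%). The 30 sites were spread over 16 bins, with 4 from 65 to 70 Mb and 3 in each of the bins from 0 to 5, 10 to 15, 70 to 75 and 135 to 140 Mb. The bin from 155 to 160 Mb, with 44 YAP5SA and 45 YT peaks, had 1.

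**Figure D5:**
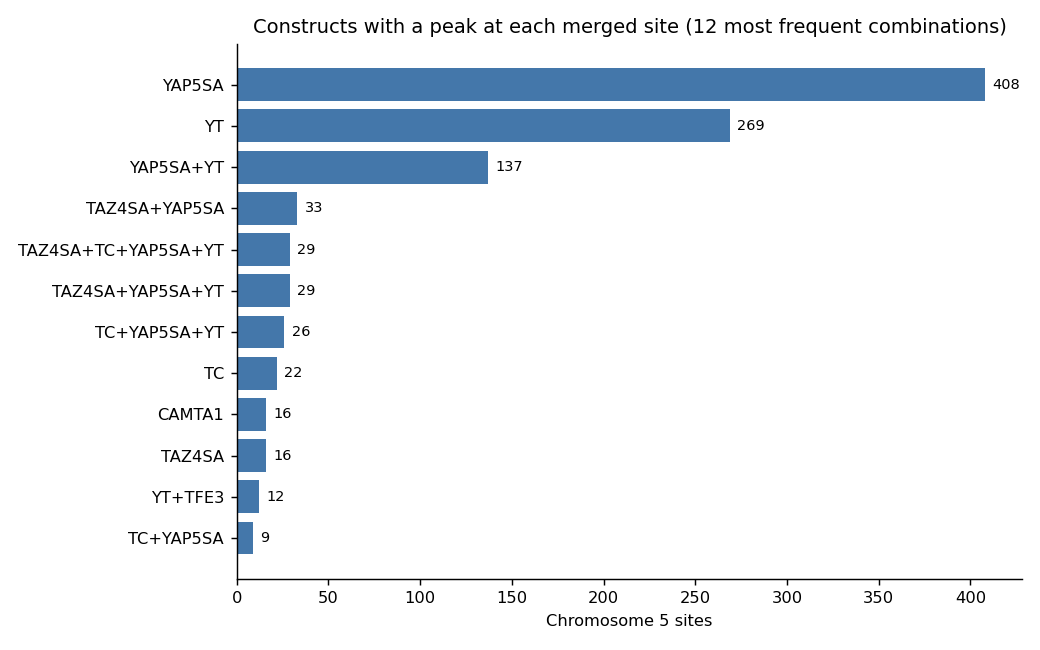
Number of merged chromosome 5 sites (x axis) for each of the 12 most frequent combinations of constructs (y axis). YAP5SA alone held 408 sites, YT alone 269, both together 137, and TAZ4SA, TC, YAP5SA and YT without TFE3 held 29. TFE3 alone, not drawn, held 9, as many as the lowest bar.

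The sites described here were each held by at least 4 constructs and were picked partly for this, so their sharing is no result. A site at chr5:1326298-1328941 had a peak in each of the 4 YAP/TAZ lists, with 37.4-fold enrichment in TAZ4SA, 28.1-fold in YAP5SA, 15.8-fold in YT and 9.12-fold in TC, and the highest summed −log10 q of the 30 sites (423). It rested on 149, 389, 229 and 67 fragments at the summit. At chr5:10551152-10552969 the enrichment was 24.3-fold in TAZ4SA, 16.1-fold in YAP5SA, 10.5-fold in TC and 6.46-fold in YT. In both sites the fusions were less enriched than the active parent of the same family, and fold enrichment is not on a common scale between lists. This order did not hold at all of the 30 sites. Both fusions were the more enriched at the site near 131.7 Mb described next, at chr5:56988528-56989496 and at chr5:67729455-67730278. At chr5:56988528-56989496 YT had 7.13-fold and YAP5SA 5.46-fold enrichment, and TC had 5.66-fold and TAZ4SA 5.23-fold. At chr5:67729455-67730278 YT had 10.9-fold and YAP5SA 6.18-fold enrichment, and TC had 5.09-fold and TAZ4SA 3.61-fold. A site near 131.7 Mb (YAP5SA peak chr5:131723186-131724390) was held by 5 constructs, at 9.61-fold in YT, 7.90-fold in YAP5SA, 5.78-fold in TC, 4.47-fold in TAZ4SA and 3.67-fold in TFE3. The TC peak there overlapped the YAP5SA and YT peaks but not the TAZ4SA and TFE3 peaks, so the 5 constructs were joined through the wider peaks. No site was held by all 6.

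Other strong peaks were uneven between constructs. The strongest TC peak, chr5:124379437-124380387, had 12.5-fold enrichment and overlapped YAP5SA and YT but no TAZ4SA peak. The third of TC, chr5:5340244-5340899, had 10.4-fold enrichment and overlapped peaks of the 3 other YAP/TAZ constructs. A peak at chr5:65440052-65440784 had 15.6-fold enrichment in YT and 13.5-fold in TFE3, and overlapped YAP5SA but neither TAZ construct. Of the 5 strongest TFE3 peaks, all 5 overlapped YT, beside 72.2% of all TFE3 peaks on chromosome 5 and 79.3% on all chromosomes. The strongest of the 5 was at the chromosome start, on a background 24.9 times the lowest, and is described below. TFE3 had 17.9-fold enrichment at chr5:41904147-41904744, 13.5-fold at chr5:72143640-72144228 and 8.20-fold at chr5:132299045-132299684. The strongest CAMTA1 peak, chr5:71404225-71405041, had 11.3-fold enrichment on 50 fragments and overlapped no other construct. The second, chr5:135372585-135373095, had 9.50-fold enrichment and overlapped YAP5SA and YT. The next 3, chr5:137799591-137799996, chr5:137090150-137090423 and chr5:150535279-150535547, had 7.05-fold, 6.66-fold and 5.89-fold enrichment and overlapped no other construct. The strongest peaks held by a single construct were chr5:39399421-39399891 in YT (11.4-fold), chr5:10885132-10885778 in YAP5SA (10.6-fold), chr5:153747565-153748260 in TC (6.96-fold) and chr5:141212840-141213110 in TAZ4SA (5.71-fold).

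Some strong peaks stood on a high local background. The peak with the highest −log10 q on the chromosome (330.4), TAZ4SA chr5:165784591-165786011, had 26.7-fold enrichment on 323 fragments with a background 4.79 times the lowest. The YAP5SA peak over it, chr5:165783138-165786052, had 18.3-fold enrichment on 630.0 fragments and a background 2.93 times the lowest, while YT had 2.56-fold enrichment there and TC had no peak. In this region YAP5SA had 9 peaks, this one included, whose background was 2.81 to 4.57 times the lowest, of which 7 overlapped no other list. At the chromosome start, where chromosomes end in telomeric repeats, a site at chr5:10066-11772 had peaks in YT (6.65-fold), YAP5SA (4.54-fold), TFE3 (4.51-fold) and TAZ4SA (2.02-fold), with backgrounds of 13.3, 18.0, 24.9 and 22.5 times the lowest. It was the strongest chromosome 5 peak of YT and TFE3 by −log10 q. The part of the background in these peaks was not tested.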

How the data were processed

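Per the study's methods, the authors pooled the replicates' reads of each construct, used Atropos for trimming and BWA-MEM for alignment to GRCh37, removed reads with several placements and greylisted regions, and called peaks with macs2. Sample descriptions name another build, but the unplaced scaffold names in the lists are those of GRCh37. The deposited fold enrichment is a ratio to the local background, and the deposited p-values and q-values are −log10 values. The positions are the authors' calls. The display score was not used.

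The chromosome, its lists and bins were chosen with earlier results of these data known. Peaks were placed by their centre in 5 Mb bins. Fragments at the summit and the local background were recovered from the fold enrichment and p by requiring whole fragments, with a single solution for 99.3% to 100% of peaks per list, and the recovery was checked on simulated lists. Named peaks were, on chromosome 5, the 3 highest by −log10 q in the TAZ4SA, TC, YAP5SA and YT lists, the strongest held by 1 construct in each, the 5 strongest of CAMTA1 and TFE3, the crowded bins, the 3 fullest 1 Mb YAP5SA windows and the 3 sites of most constructs. Which control library set each list's background was not given in the sources used here. The supplied genome and annotation were GRCh38 (gene counts per chromosome only), so genes and sequences at the peaks were not analysed here. No value column was left without a group. Alternatives are given below. The software was Python 3.11.15 with scipy 1.17.1, numpy 2.4.6, matplotlib 3.10.9 and pandas 2.3.3.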

Additional observations from a re-analysis of the deposited data

How the results depend on the processing

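Of 97 alternatives over 30 results, 76 stayed within the interval of the value (or within 1.5 times for counts) and 21 moved past it. The cause of the moves was not tested, other than where a stricter rule leaves fewer peaks by construction. The YT share on chromosome 5 was 14.4% at q below 0.01 and 13.2% for the strongest 1166 peaks, and the TFE3 share was 8.61% with unplaced scaffolds counted. Crowded bins at 4 times the mean numbered 3 for TAZ4SA, 1 for TC and 9 for YT. TC had 12 at 2 times the mean and 3 with bins moved by 2.5 Mb. The 10 fullest bins of 2.5 Mb held 46.7% of TAZ4SA, 43.4% of YAP5SA and 42.7% of YT peaks. With 50% reciprocal overlap the shares were 19.8% for TC in TAZ4SA, 16.7% for TAZ4SA in TC, 28.1% for YT in YAP5SA, 21.8% for YAP5SA in YT, 44.2% for TAZ4SA in YAP5SA, 36.6% for TC in YT and 36.6% for TC in YAP5SA. With lists cut to 1166 peaks they were 57.5% for TAZ4SA in YAP5SA, 39.8% for TC in YT and 54.1% for TC in YAP5SA. Leaving out peaks at 3 or more times the lowest background, chosen after seeing the data, moved none of the 10 results it was run on. The allowance of 1.5 times for counts is wide. Within it, this filter took the TAZ4SA crowded bins from 11 to 8. Cutting the lists to 1166 peaks took the sites held by all 4 YAP/TAZ constructs from 30 to 20. No paired analysis was possible because each list comes from merged replicates, and no replicate could be left out. At the depth of the TAZ4SA, TC and CAMTA1 lists a missing peak does not show that a site was unbound.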
